A study of Mus musculus with 32 samples.

Results

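The 9 genes described here belong to the Atf4 stress response and were chosen by name: Atf4, Ddit3, Trib3, Chac1, Asns, Sesn2, Ddit4, Psat1 and Phgdh. They are 9 of 45706 genes in the tables, and 9 of 9 passed the filter on low counts that left 15186 genes for testing. RNA was measured in haematopoietic stem and progenitor cells (HSPCs), sorted from bone marrow as lineage-negative, Kit-positive, Sca1-positive cells carrying both CD45.1 and CD45.2, the marks of the wild-type donor. All mice were lethally irradiated C57BL/6J recipients (CD45.2) given that wild-type marrow together with CD45.1 marrow homozygous for rtTA, the doxycycline-dependent activator. In experienced mice ("AF9+/+") the CD45.1 marrow was also homozygous for hMLL-AF9, a human leukaemia fusion gene switched on by doxycycline, and in naive mice ("AF9-/-") it lacked the fusion. Induction lasted 5 weeks and withdrawal 4 weeks, after which mice received PBS or LPS (lipopolysaccharide, a bacterial wall component) and were sacrificed 24 hours later. The sorted cells came from the wild-type donor and not from the marrow with the fusion, the doxycycline schedule is described for the mice in general, and age and sex of the mice were not given in the labels. Each of the 4 groups, named here by history and injection (for example naive PBS), had 4 biological replicates (n = 4).

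Atf4 is a transcription factor whose messenger RNA is translated more when stress kinases phosphorylate the initiation factor eIF2, so its activity can rise without a change in its transcript. It switches on genes for amino acid synthesis, uptake and charging of transfer RNA, and genes that slow growth or limit the response itself. In HSPCs this pathway is known for setting how cells react to low amino acids and misfolded protein.

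Libraries held 7.72 M to 22.3 M expected counts, and mitochondrial genes took 1.91% to 7.30% of them. Experienced LPS replicate 4 was the shallowest library, had the highest mitochondrial share and the lowest mean correlation with its own group (0.941), and experienced PBS replicate 4 had the next highest share (5.94%). Kit and the other 7 HSPC markers were detected, with a summed level of 1699 to 2612 CPM (expected counts scaled to a common library size) in the 8 PBS libraries and 1083 to 1290 CPM in the 8 LPS libraries. Ly6a, which encodes Sca1 and so sets the sorting gate, rose after LPS in naive mice (log2 difference 1.72, SE 0.34) and in experienced mice (1.87, SE 0.34). In such bulk samples, fewer cells of a type and less RNA per cell cannot be told apart.

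Atf4 itself and Ddit3, Chac1, Sesn2 and Phgdh did not pass the test in any of the 5 comparisons. After LPS in naive mice, Asns and Psat1 rose and Trib3 fell, 3 of 9 genes, where 21.7% of all genes tested were called. A gene was called when edgeR's quasi-likelihood test gave it an adjusted p (Benjamini-Hochberg) under 0.05. In experienced mice, Psat1 and Ddit4 rose and 0 of the 9 fell, where 12.8% of all genes were called (4.52% higher and 8.26% lower). Without replicate 4 of both experienced groups, 5 of the 9 rose there (Psat1, Ddit4, Asns, Phgdh and Atf4), in a fit that called 22.2% of all genes, 10.2% higher. In CPM the libraries of LPS and PBS did not overlap for 3 of the 9 genes in naive mice (Trib3, Asns and Psat1, against 29.3% of all genes). In experienced mice they did not overlap for 1 (Ddit4, which was higher), against 17.3% of all genes, with 6.45% higher and 10.9% lower. In TPM (transcript abundance scaled for gene length and library size), Psat1 in naive and Ddit4 in experienced mice overlapped, while Trib3 and Asns in naive mice did not. Over the 9 genes the median log2 difference was 0.11 in naive and 0.72 in experienced mice, against 0.02 and −0.02 over all genes tested. The plot of levels by library shows these changes beside the spread between replicates.

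**Figure D1:**
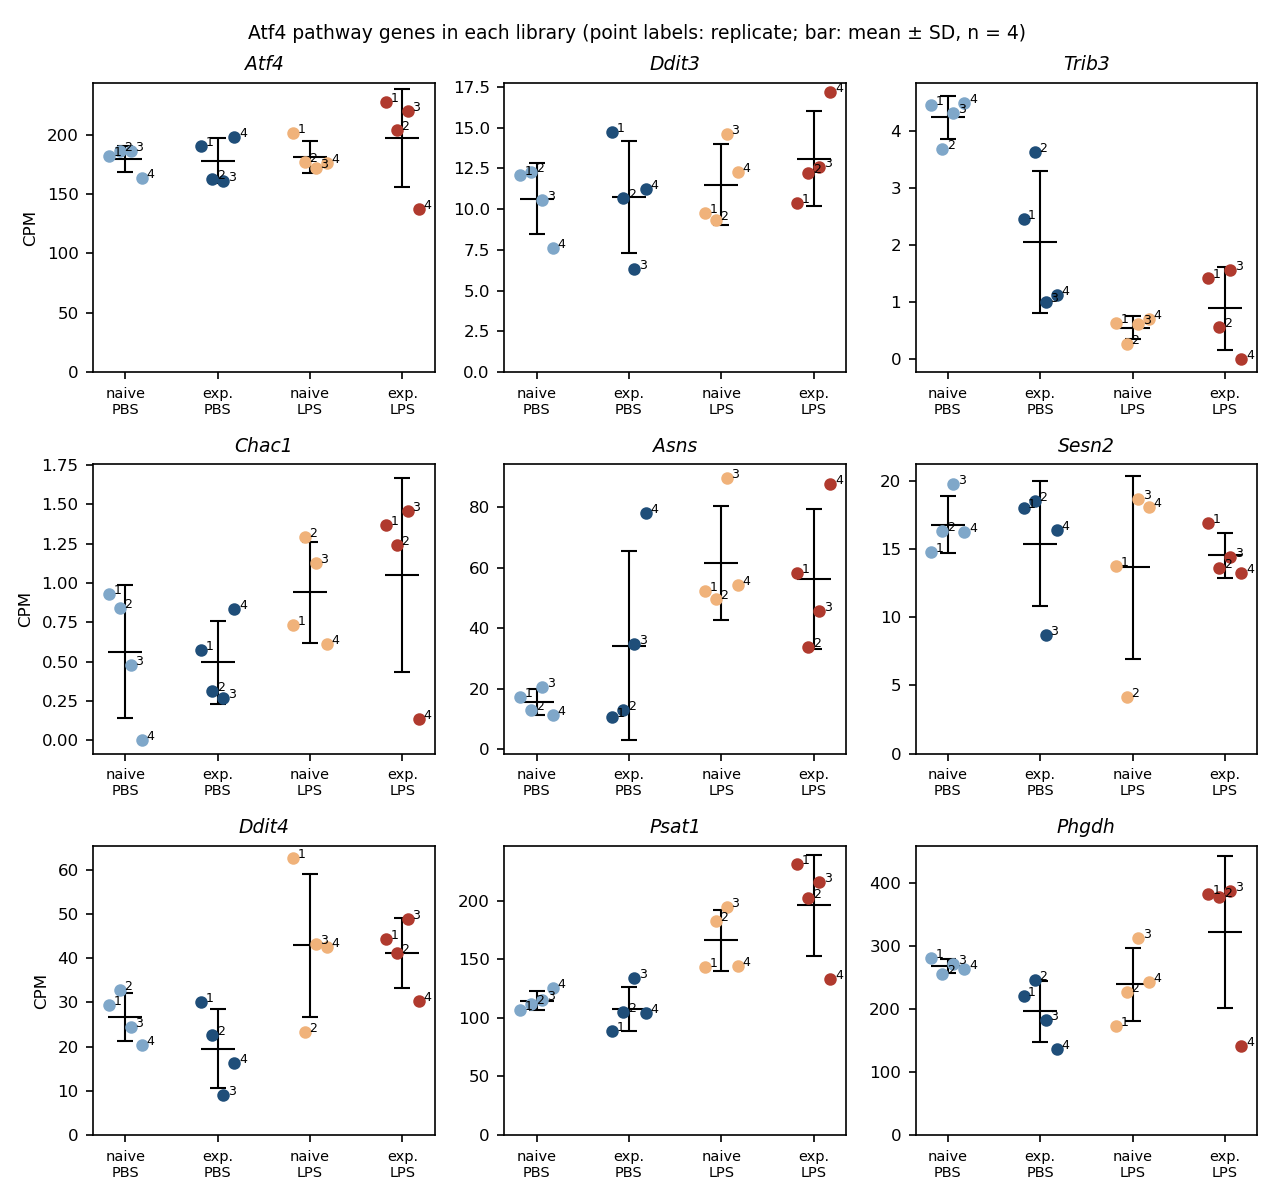
Levels of the 9 genes in CPM (vertical axes, each from 0) in the 4 groups; each point is 1 library labelled with its replicate number, and bars are the mean ± SD (n = 4). The 4 naive PBS libraries lie above the 4 naive LPS libraries in Trib3 and below them in Asns and Psat1, while the Atf4 groups overlap.

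Atf4 (ENSMUSG00000042406, chr15:80255184-80257541, plus strand, GRCm38) was at 183, 187, 186 and 164 CPM in naive PBS, at 191, 163, 162 and 198 CPM in experienced PBS, at 201, 177, 172 and 177 CPM in naive LPS, and at 228, 204, 220 and 137 CPM in experienced LPS. All groups overlapped, and the highest and the lowest library were both in experienced LPS. The log2 difference of LPS against PBS was 0.01 (95% interval −0.29 to 0.32) in naive mice and 0.15 (−0.16 to 0.46) in experienced mice, with adjusted p of 0.959 and 0.559 by edgeR. Without replicate 4 of both experienced groups the second became 0.36 with an adjusted p of 0.0368 (edgeR). The RNA level does not show how much Atf4 protein was made.

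Ddit3 (ENSMUSG00000025408, chr10:127290774-127296288, plus strand) encodes CHOP, a partner of Atf4 that accumulates under prolonged stress. Its level was 10.7 ± 2.17 CPM (mean ± SD, n = 4) in naive PBS, 10.8 ± 3.45 in experienced PBS, 11.5 ± 2.47 in naive LPS and 13.1 ± 2.90 in experienced LPS. The groups overlapped throughout, and the LPS difference was 0.11 (−0.43 to 0.65) in naive and 0.28 (−0.27 to 0.82) in experienced mice on the log2 scale. Ddit3 overlaps Mars, on the other strand, by 68 bases, and reads of the shared stretch cannot be told apart where strand was not used.

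Trib3 (ENSMUSG00000032715, chr2:152337422-152344032, minus strand) encodes a pseudokinase that is induced by Atf4 and Ddit3 and in turn restrains them. It was at 4.47, 3.70, 4.32 and 4.49 CPM in naive PBS and at 0.629, 0.258, 0.612 and 0.702 CPM in naive LPS. The 4 LPS libraries were all below the 4 PBS libraries, as they were for 16.8% of all genes tested. Trib3 fell by 2.89 on the log2 scale (SE 0.63, adjusted p = 0.00479 by edgeR), a 7.40-fold lower level, and stayed called without any 1 of the 16 libraries (−2.99 to −2.69, adjusted p 0.000465 to 0.0155 by edgeR). With limma on log2(TPM + 0.1) it was −2.44 with an adjusted p of 0.0514. The counts behind it were 75 to 101 reads per naive PBS library and 2 to 13 per naive LPS library.

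In experienced mice the Trib3 libraries spread more. After PBS they stood at 2.46, 3.64, 1 and 1.12 CPM, and after LPS at 1.42, 0.565, 1.56 and 0 CPM. A count of 0 in experienced LPS replicate 4 allows up to 0.412 CPM (3 counts), and the 2 groups overlapped. The log2 difference was −1.11 (−2.37 to 0.15, adjusted p = 0.242 by edgeR), not past the threshold. In CPM all 4 experienced PBS libraries were below all 4 naive PBS libraries in Trib3, whereas in TPM these groups overlapped (experienced up to 2.92, naive from 2.62). The log2 difference between them was −1.03 (−2.24 to 0.18, adjusted p = 0.988 by edgeR). The LPS effect in experienced mice less the effect in naive mice was 1.78 (−0.03 to 3.59, unadjusted p = 0.0535, adjusted p = 0.884 by edgeR), so a difference between the responses was not shown.

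HSPC markers, like Trib3, were lower in sum in the 8 LPS libraries than in naive PBS, but did not follow Trib3 in every library. Their summed CPM were 2102, 2221, 2146 and 2612 in naive PBS, 2285, 2154, 1939 and 1699 in experienced PBS, and 1083 to 1290 over the 8 LPS libraries. Experienced PBS replicates 3 and 4, the lower pair in Trib3 CPM of that group, were also its lower pair in these markers. In TPM the lower pair in Trib3 was replicates 1 and 3 (1.74 and 0.68). Experienced PBS replicates 1 and 2 were below naive PBS in Trib3 CPM (2.46 and 3.64) but within its range in markers. In experienced LPS, replicate 3 had the lowest sum and the highest Trib3 (1.56 CPM). Of the 8 markers, 5 fell and 1 rose after LPS in each kind of mouse. The part of cell composition in the Trib3 values was not tested.

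Asns (ENSMUSG00000029752, chr6:7675169-7693254, minus strand) encodes asparagine synthetase, which makes asparagine from aspartate and glutamine. Its level was 17.5, 13.0, 20.7 and 11.4 CPM in naive PBS and 52.2, 49.8, 89.8 and 54.3 CPM in naive LPS. Every LPS library lay above every PBS library, as for 12.5% of all genes tested, and the log2 rise was 1.97 (SE 0.49, adjusted p = 0.0101 by edgeR), 3.93-fold. In experienced mice it was 10.7, 13.1, 34.8 and 78.2 CPM after PBS and 58.4, 33.8, 45.8 and 87.7 CPM after LPS. The groups overlapped because PBS replicates 3 and 4 were high, and the log2 difference of 0.73 (−0.28 to 1.74) did not pass the test (adjusted p = 0.346 by edgeR). It was 1.56 (adjusted p = 0.0176, edgeR) without PBS replicate 4 and 2.24 (adjusted p = 0.00167) without PBS replicates 3 and 4.

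Summed erythroid transcripts were mostly high in the libraries high in Asns, with exceptions. The summed level of 8 erythroid markers was 22.8, 24.7, 22.3 and 6.53 CPM in naive PBS, 12.8, 13.3, 56.3 and 205 CPM in experienced PBS, 135, 52.7, 173 and 103 CPM in naive LPS, and 67.6, 41.6, 75.4 and 121 CPM in experienced LPS. The highest Asns library of naive LPS (replicate 3), of experienced LPS (replicate 4) and of experienced PBS (replicate 4) was also the highest of its group in these markers. In naive PBS the highest in Asns was replicate 3 and in markers replicate 2. Naive LPS replicate 1 was above replicate 4 in markers (135 against 103 CPM) but below it in Asns (52.2 against 54.3 CPM). Of 7 markers tested, 3 rose and 0 fell after LPS in naive mice (log2 −1.13 to 3.46, median 0.03), where 9.81% of all genes rose and 11.9% fell. In experienced mice 0 of the 7 were called, where 12.8% of all genes were. Each of the 4 globin genes (Hba-a1, Hba-a2, Hbb-bs and Hbb-bt) averaged at most 1.001 CPM in any group. Summed basophil and mast cell markers were 40.1 to 62.1 CPM in naive PBS, 34.4 to 182 in experienced PBS, 320 to 597 in naive LPS and 224 to 482 in experienced LPS. The part of either cell type in the Asns values was not tested.

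**Figure D2:**
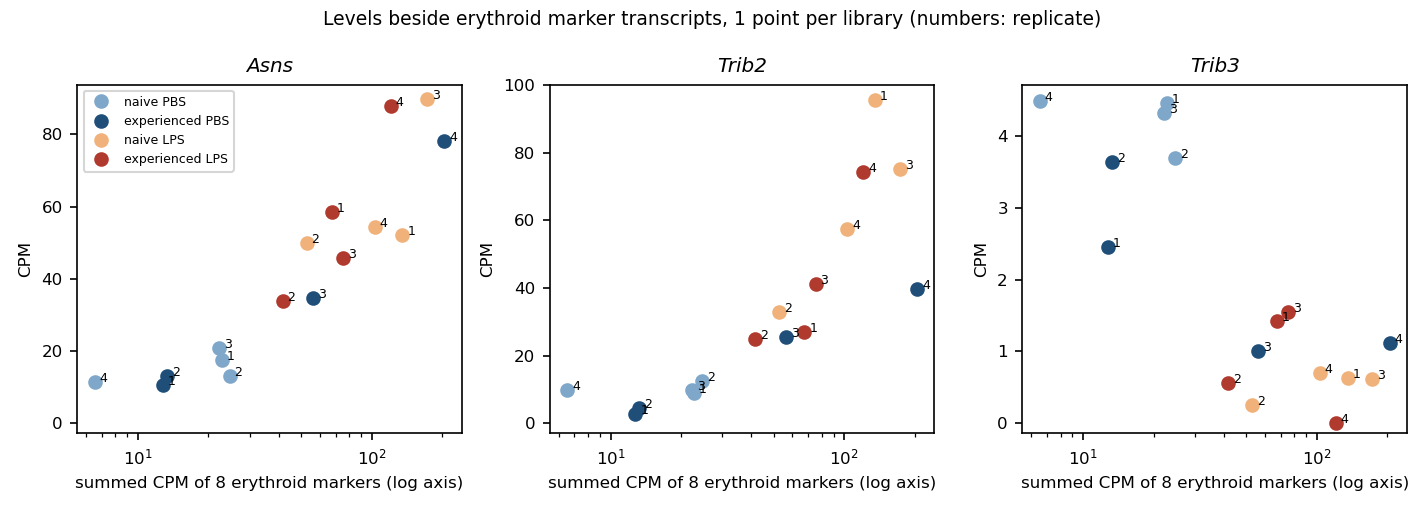
Levels of Asns, Trib2 and Trib3 in CPM (vertical axes) against the summed CPM of 8 erythroid markers (log axis), 1 point per library, coloured by group and labelled with the replicate number. The 3 libraries with the highest Asns (78.2 to 89.8 CPM) have summed markers of 121 to 205 CPM, and the 4 naive PBS libraries lie at the upper left in Trib3.

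Chac1 (ENSMUSG00000027313, chr2:119351229-119354381, plus strand) encodes an enzyme that breaks down glutathione and is a known Atf4 target. It was near the limit of detection, with 0 to 31 reads per library, and 0 reads in naive PBS replicate 4 allow up to 0.18 CPM. Group means were 0.563 ± 0.422 CPM in naive PBS, 0.498 ± 0.264 in experienced PBS, 0.942 ± 0.32 in naive LPS and 1.053 ± 0.617 in experienced LPS. Replicates 1 to 3 of experienced LPS stood at 1.24 to 1.46 CPM, and replicate 4, the shallowest, at 0.138 CPM with 1 read. The log2 differences after LPS, 0.70 (−0.87 to 2.28) and 1.15 (−0.46 to 2.76), did not pass the test and were not measurable more closely at this depth.

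Phgdh and Psat1 encode the first enzymes of serine synthesis from a glycolytic intermediate, and serine feeds glycine and one-carbon metabolism. Psat1 (ENSMUSG00000024640, chr19:15904678-15947337, minus strand) was at 106, 112, 115 and 126 CPM in naive PBS and at 143, 183, 194 and 144 CPM in naive LPS. In experienced mice it was at 88.5, 105, 134 and 104 CPM after PBS and at 231, 202, 216 and 133 CPM after LPS. In CPM the naive groups did not overlap, while in experienced mice LPS replicate 4 fell within the PBS range and the other 3 lay above it. In TPM the naive groups overlapped, with LPS replicate 4 at 60.92 and PBS up to 77.57. Psat1 rose by 0.54 (SE 0.17, adjusted p = 0.0353 by edgeR), or 1.45-fold, in naive mice and by 0.86 (SE 0.17, adjusted p = 0.00394), or 1.82-fold, in experienced mice. The naive call was lost in 5 of 16 fits that left out 1 library (replicates 1, 2 and 3 of naive PBS, and 2 and 3 of naive LPS), with log2 values of 0.45 to 0.54 and adjusted p of 0.0655 to 0.0978 by edgeR, and the experienced call in 0 of 16. The naive call was also lost with limma on log2(TPM + 1) (0.37, adjusted p = 0.243), with upper-quartile scaling (adjusted p = 0.0533, edgeR) and without the filter (adjusted p = 0.0522, edgeR).

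Phgdh (ENSMUSG00000053398, chr3:98313170-98339990, minus strand) did not pass edgeR's test in either kind of mouse, while DESeq2 called it in experienced mice (log2 0.73, adjusted p = 0.0425). Its level was 281, 256, 271 and 264 CPM in naive PBS and 173, 227, 313 and 242 CPM in naive LPS, a log2 difference of −0.17 (−0.73 to 0.39). In experienced mice it was 221, 246, 182 and 136 CPM after PBS and 383, 377, 388 and 141 CPM after LPS. In CPM, replicates 1 to 3 of experienced LPS were above every other library of the 16, and replicate 4 was near the bottom. In TPM, naive LPS replicate 2 was the highest (341.8), above replicates 1 to 3 of experienced LPS (248.8 to 264.3). The log2 difference in experienced mice was 0.72 (0.15 to 1.28, adjusted p = 0.0873 by edgeR), not past the threshold, and became 0.98 with an adjusted p of 0.0029 without experienced LPS replicate 4. The 4 experienced PBS libraries of Phgdh lay below the 4 naive PBS libraries in CPM but overlapped them in TPM (102.5 to 189.6 against 160.4 to 224.9). The log2 difference between these groups was −0.45 (−1.01 to 0.11), and the difference between the LPS responses was 0.88 (0.09 to 1.68, unadjusted p = 0.0315, adjusted p = 0.884 by edgeR).

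Sesn2 and Ddit4 both hold back the growth kinase mTORC1, Sesn2 as a leucine sensor and Ddit4 (also called Redd1) as a stress-induced inhibitor. Ddit4 (ENSMUSG00000020108, chr10:59949669-59951834, minus strand) was at 29.4, 32.7, 24.5 and 20.3 CPM in naive PBS, at 62.7, 23.2, 43.2 and 42.5 CPM in naive LPS, at 30.02, 22.5, 9.003 and 16.4 CPM in experienced PBS, and at 44.3, 41.1, 48.9 and 30.3 CPM in experienced LPS. In CPM all experienced LPS libraries lay above all experienced PBS libraries, as for 6.45% of all genes tested, while naive LPS replicate 2 fell within the naive PBS range. In TPM the experienced groups overlapped, with LPS replicate 4 at 23.55 and PBS replicate 1 at 25.95. Ddit4 rose by 1.08 (SE 0.32, adjusted p = 0.0348 by edgeR), 2.11-fold, in experienced mice and differed by 0.69 (0.02 to 1.35, adjusted p = 0.128) in naive mice. The experienced call was lost in 6 of 16 fits that left out 1 library, each of experienced PBS replicates 2, 3 and 4 and experienced LPS replicates 1, 2 and 3 (log2 0.84 to 1.15, adjusted p 0.0619 to 0.0892 by edgeR), and with limma on log2(TPM + 1) (0.99, adjusted p = 0.103). Without experienced PBS replicates 3 and 4 together it was 0.65 (adjusted p = 0.178 by edgeR). The naive difference was called without naive LPS replicate 2 (0.90, adjusted p = 0.0466 by edgeR).

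Sesn2 (ENSMUSG00000028893, chr4:132492032-132510501, minus strand) stood at 16.8 ± 2.11 CPM in naive PBS, 15.4 ± 4.57 in experienced PBS, 13.7 ± 6.72 in naive LPS and 14.5 ± 1.65 in experienced LPS. Naive LPS replicate 2, with 4.13 CPM, and experienced PBS replicate 3, with 8.67 CPM, were the low libraries, and the groups overlapped. The log2 differences after LPS were −0.28 (−0.98 to 0.41) in naive and −0.08 (−0.78 to 0.62) in experienced mice. Experienced PBS replicate 3 was the lowest of all 16 libraries in Ddit4 and Ddit3 too, and in the sum of 8 dissociation response genes (2109 CPM, against 2396 to 5774 in the other 15). The part of handling in these values was not tested.

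**Figure D3:**
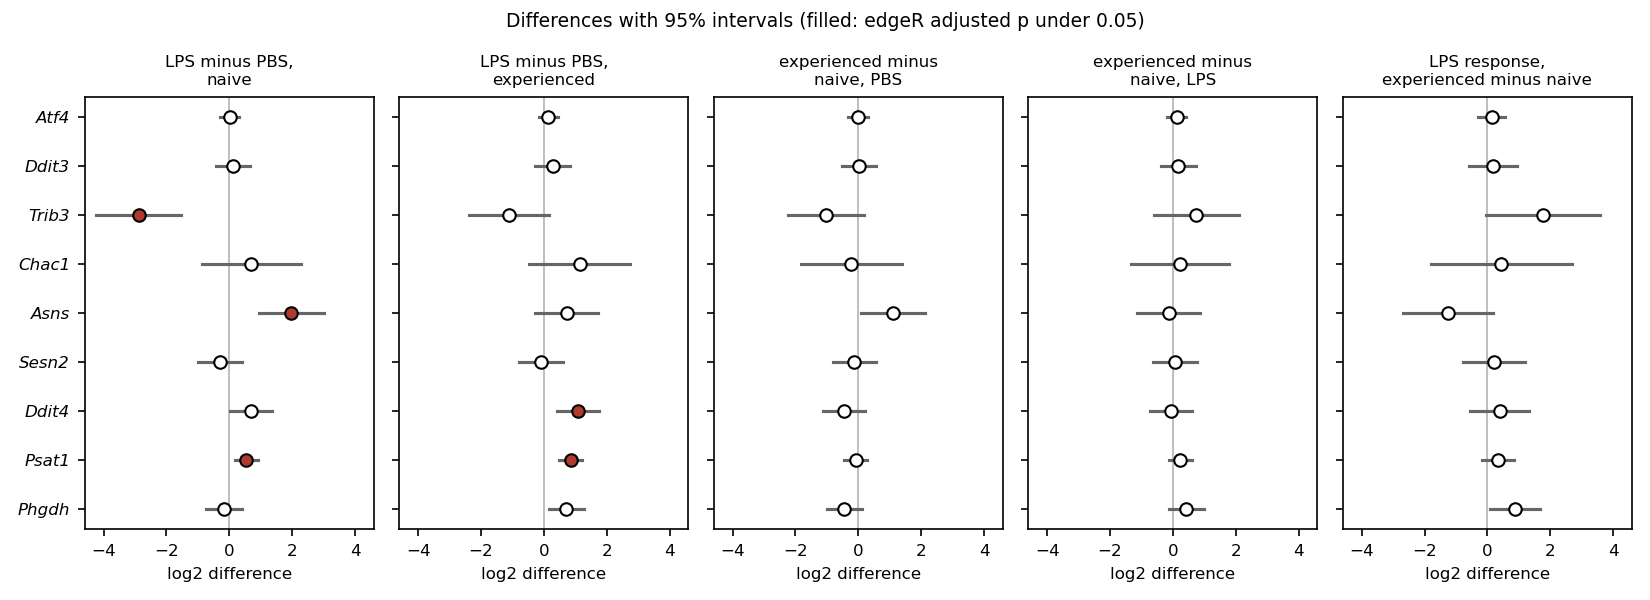
Log2 differences (horizontal axes) of the 9 genes in 5 comparisons by edgeR; points are estimates, lines are 95% intervals, and filled points have an adjusted p under 0.05. Trib3 at −2.89 is the one filled point left of 0, and no point is filled in the 3 comparisons that involve experienced against naive mice.

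Between experienced and naive mice, 0 of the 9 genes were called by edgeR after PBS, after LPS or in the interaction, in each of which 0.0% of all genes were called. At an unadjusted p under 0.05 the counts were 1 (Asns, log2 1.11, 0.09 to 2.13), 0 and 1 (Phgdh), and DESeq2 and limma called 0 of the 9 in each of them. In CPM the groups did not overlap for 2 of the 9 genes after PBS (Trib3 and Phgdh, both lower in experienced mice) and for 0 after LPS, against 4.04% (2.22% lower) and 1.62% of all genes tested. In TPM the groups overlapped after PBS in both Trib3 and Phgdh. The naive PBS libraries serve both the LPS comparison in naive mice and the comparison after PBS, so the values of one are not independent of the other. Intervals after PBS ran from −0.32 to 0.30 for Atf4 and from −0.45 to 0.27 for Psat1, and after LPS from −0.12 to 0.60 for Psat1 and from −0.13 to 0.99 for Phgdh. The widest were those of Chac1, from −1.83 to 1.38 after PBS and from −1.34 to 1.78 after LPS. Trib3 ran from −2.24 to 0.18 after PBS and from −0.59 to 2.09 after LPS. Large differences were thus not excluded for Chac1 and Trib3.

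Levels were compared between genes in TPM (transcript abundance scaled for gene length and library size). Phgdh was the most abundant of the 9 in each group by mean (150 to 228 TPM), followed by Atf4 (129.5 to 144 TPM) and Psat1 (61.0 to 98.9 TPM). Phgdh and Atf4 overlapped between libraries in all 4 groups. Atf4 and Psat1 overlapped in experienced LPS and in no other group. Asns ranked at place 6 in naive PBS with 11.1 ± 4.02 TPM and at place 4 in naive LPS with 39.5 ± 11.7 TPM, where it overlapped Ddit4 (31.9 ± 15.7 TPM). Trib3 was above Chac1 without overlap in naive PBS (3.11 ± 0.555 against 0.48 ± 0.347 TPM), and in naive LPS the pair overlapped (0.63 ± 0.583 and 0.71 ± 0.249 TPM).

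Atf4 binds with C/EBP proteins at a response element that joins a site of each family, written TGATGNAA, or TTNCATCA on the other strand, with TGATGCAA as its exact form. In RefSeq promoters of GRCm38.p6, from 250 bases before to 50 after a start, 9 of 9 genes matched an entry, with 10 promoters in all. The element was in 3 of these 10 promoters (30%), those of Trib3, Chac1 and Asns, against 3.97% of 32851 promoters, and the exact form in 1 (Chac1) against 0.895%. It was also in 5 of 9 promoters of cytosolic aminoacyl-tRNA synthetases (Aars, Gars, Iars, Tars and Yars) and in 0 of 6 promoters of the members' relatives. Of the other lists, it was in 3 of 10 promoters of partner factors, 2 of 7 of other amino acid enzymes, 2 of 10 of transporters and 2 of 11 of growth and secreted targets. It was in 0 of 6 promoters of serine, glycine and one-carbon enzymes, 0 of 7 of stress kinases and eIF2 and 0 of 1 of the eIF2 phosphatase. Several lists were searched in part, because not every gene matched a promoter entry. Entries covered 9 of 13 genes of the synthetase list, 7 of 10 transporters and 6 of 8 other amino acid enzymes. They covered 6 of 7 serine, glycine and one-carbon genes, 7 of 8 growth and secreted targets, 5 of 6 relatives and 1 of 2 phosphatase genes. The median GC content was 61.0% in the members' promoters and 52.7% in all. The windows below show the 3 member sites and 3 sites of synthetases that rose, each 30 bases 5′ to 3′ on the gene's strand with the element in capitals.
Trib3: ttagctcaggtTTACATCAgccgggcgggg
Chac1: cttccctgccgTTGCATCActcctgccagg
Asns: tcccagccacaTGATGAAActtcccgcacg
Gars: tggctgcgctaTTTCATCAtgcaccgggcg
Iars: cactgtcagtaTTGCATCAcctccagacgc
Tars: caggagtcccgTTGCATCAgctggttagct
Counted from the start of the transcript, the element lay at positions 15 to 22 in Trib3 (window chr2:152344028-152344057, minus strand), −193 to −186 in Chac1 (chr2:119351038-119351067, plus strand) and −23 to −16 in Asns (chr6:7693214-7693243, minus strand). In the synthetases it lay at −30 to −23 in Gars (chr6:55037960-55037989, plus strand), 8 to 15 in Iars (chr13:49682126-49682155, plus strand) and −15 to −8 in Tars (chr15:11399655-11399684, minus strand). A match is a run of letters and does not show binding, and the other 6 genes lack these letters in this window alone. Trib3 and Asns both hold the element, and after LPS in naive mice one fell and the other rose.

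Of the 2 relatives of Trib3, Trib2 rose after LPS in naive mice and Trib1 did not pass the test. Trib2, a pseudokinase known as an oncogene in myeloid leukaemia, was at 8.93, 12.5, 9.89 and 9.94 CPM in naive PBS and at 95.6, 33.1, 75.3 and 57.6 CPM in naive LPS. The groups did not overlap and Trib2 rose by 2.67 (SE 0.63, adjusted p = 0.00746 by edgeR). Trib2 in experienced mice was at 2.82, 4.37, 25.5 and 39.8 CPM after PBS and at 26.9, 24.9, 41.1 and 74.2 CPM after LPS, an overlap, with a log2 difference of 1.22 (−0.06 to 2.50, adjusted p = 0.203 by edgeR). It was called without experienced PBS replicate 4 (1.97, adjusted p = 0.0406 by edgeR) and without PBS replicates 3 and 4 (3.53, adjusted p = 0.000584). It was at its lowest, 0.83, without experienced LPS replicate 4. The libraries high in Trib2 were, as with Asns, mostly those high in erythroid markers, whose part was not tested. Trib1, which promotes degradation of the myeloid factor C/EBP alpha, differed by 0.04 (−0.55 to 0.62) in naive and 0.59 (0.00 to 1.17, adjusted p = 0.178) in experienced mice. Whether Trib3 and its relatives differ in their changes was not tested.

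Of the sestrins, stress proteins that restrain mTORC1, Sesn1 and Sesn3 fell in both kinds of mice while Sesn2 did not pass the test in either. Sesn1 was at 75.8, 90.0, 79.4 and 89.4 CPM in naive PBS and at 39.9, 42.7, 31.0 and 31.0 CPM in naive LPS, and fell by 1.21 (SE 0.16, adjusted p = 9.23e-05 by edgeR). Sesn1 in experienced mice was at 94.4, 76.2, 84.7 and 56.0 CPM after PBS and at 38.9, 38.1, 37.3 and 40.7 CPM after LPS, and fell by 1.01 (SE 0.15, adjusted p = 0.000611). None of these LPS libraries reached the lowest PBS library. Sesn3 fell by 1.11 (SE 0.24) and 1.39 (SE 0.24), with no overlap in either kind of mouse. Sesn1 and Sesn3 are known as targets of FoxO factors, and Sesn2 as the sestrin that Atf4 controls. Chac2, the relative of Chac1 with lower activity, overlaps Asb3 on the other strand and differed by 0.61 (−0.22 to 1.45) and 0.47 (−0.36 to 1.31). Ddit4l, the relative of Ddit4, had at most 17 reads in a library and did not pass the filter.

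**Figure D4:**
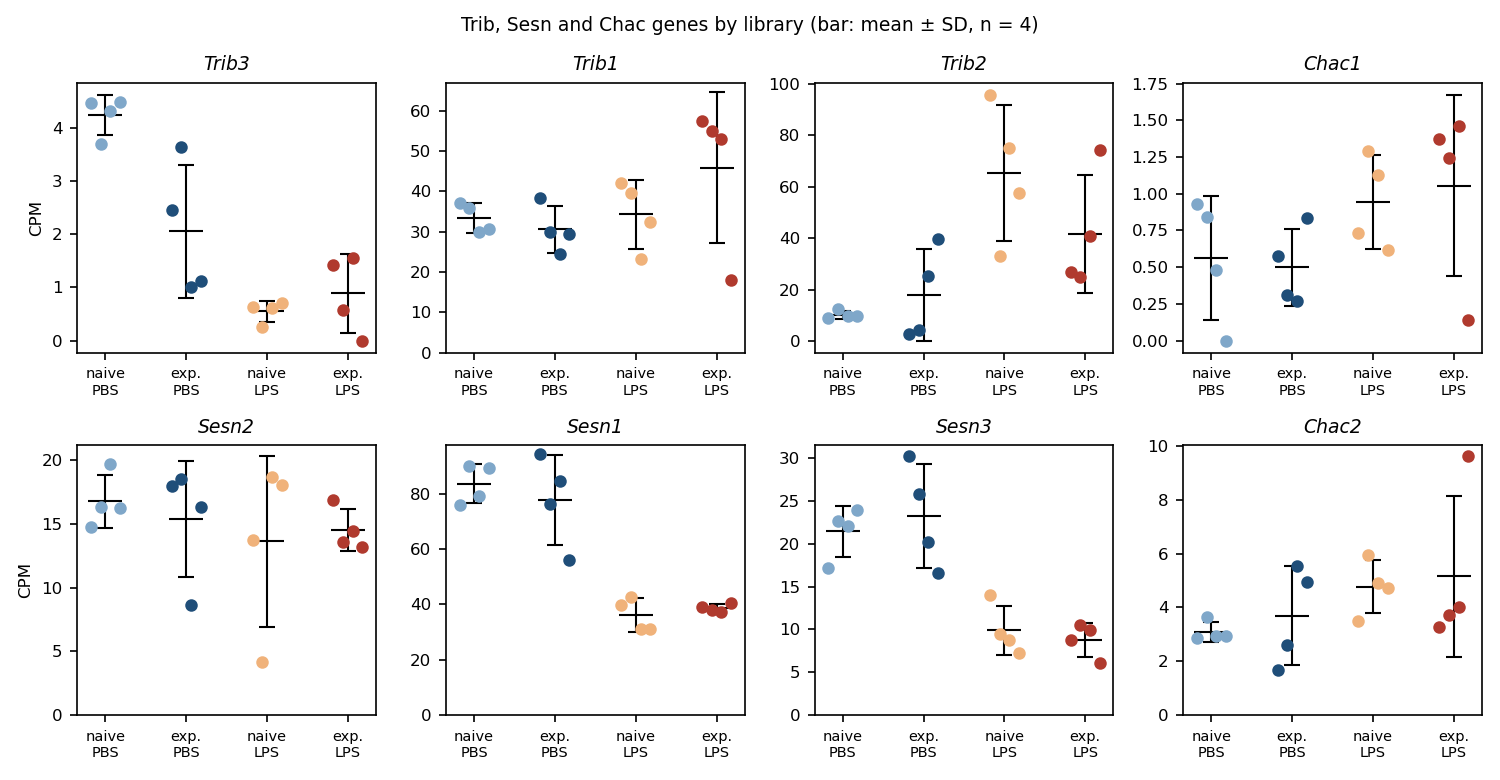
CPM (vertical axes, from 0) of the Trib, Sesn and Chac genes in the 4 groups; points are libraries and bars the mean ± SD (n = 4). Sesn1 and Sesn3 are lower in all 8 LPS libraries than in the 8 PBS libraries, whereas the 4 groups overlap in Sesn2, and Trib2 is higher in the 4 naive LPS libraries while Trib3 is lower.

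Of 61 further genes of the pathway, in 8 lists, 56 were tested. In naive mice 23 of them rose and 0 fell (41.1% rose, against 9.81% of all genes tested), and in experienced mice 26 rose and 0 fell (46.4%, against 4.52%). The median log2 difference was 0.46 and 0.57, against 0.02 and −0.02 over all genes. In each of the 3 comparisons that involve experienced against naive mice, edgeR, DESeq2 and limma on TPM called 0 of the 56, with 1, 2 and 2 at an unadjusted p under 0.05 by edgeR after PBS, after LPS and in the interaction. Without replicate 4 of both experienced groups 31 rose in naive mice (1 fell) and 35 in experienced mice, where 15.8% and 10.2% of all genes rose. DESeq2 had 27 (1 fell) and 33, where it called 1924 and 1178 of all 15186 genes higher. But limma on log2(TPM + 1) had 2 (1 fell) and 3, where it called 374 and 178 of all genes higher. Leaving out 1 library left 11 to 30 rising in naive mice, fewest without naive PBS replicate 2, and 10 to 32 in experienced mice, fewest without experienced LPS replicate 1. The fits with the fewest called 770 and 336 of all genes higher, against 1490 and 686 in the main fit. The fit with the most, without experienced LPS replicate 4, called 2178 and 1464 higher. Of the pathway genes named below, 9 of 18 called in naive mice and 8 of 22 called in experienced mice were called in all 16 such fits. The others lost the call in at least 1 fit, and Gars in experienced mice was called in 5 of 16, the fewest. The lists were chosen with earlier results of these data known and give no independent support.

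Enzymes that charge transfer RNA with amino acids held the most calls of the 8 lists, and theirs was also the longest list. Of 13 cytosolic synthetase genes (with the exporter Xpot), 10 rose in naive mice and 9 in experienced mice, and 0 fell. Of all genes tested, 9.81% rose in naive and 4.52% in experienced mice. Tars, the threonine enzyme, rose by 0.87 (SE 0.19, adjusted p = 0.00491 by edgeR) and 0.84 (SE 0.19), and Iars, the isoleucine enzyme, by 0.60 (SE 0.15) in each. Lars, the leucine enzyme, rose by 0.52 (SE 0.16) and 0.77 (SE 0.16), and Gars, the glycine enzyme, by 0.74 (SE 0.19) and 0.60 (SE 0.19). Mars, the methionine enzyme, rose by 0.82 (SE 0.20) in experienced mice and was at 0.53 (SE 0.20, adjusted p = 0.0658 by edgeR) in naive mice. DESeq2 (adjusted p = 0.0433) and limma on log2(TPM + 1) (adjusted p = 0.0383) called Mars in naive mice too. Eprs rose by 0.73 (SE 0.19) in naive mice and was at 0.55 (SE 0.19, adjusted p = 0.0682 by edgeR) in experienced mice. In the interaction 0 of the 13 were called, so a difference between the responses was not shown. The list medians were 0.62 and 0.60. With limma on TPM 1 of the 13, Mars, was called in naive mice and 0 in experienced mice. Over all genes, limma on log2(TPM + 1) called 374 and 178 higher. Leaving out 1 library left 4 to 12 called in naive mice, with 4 to 6 without naive PBS replicate 2 or 4 or naive LPS replicate 2. Experienced mice had 3 to 12 called in such fits, with 3 to 6 without replicate 1, 2 or 3 of either experienced group. Over all genes, such fits called 770 to 2178 higher in naive mice and 308 to 1464 in experienced mice.

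Of 7 serine, glycine and one-carbon genes, 4 rose in each kind of mouse and 0 fell, where 9.81% (naive) and 4.52% (experienced) of all genes rose. Mthfd2, a mitochondrial folate enzyme, rose by 0.90 (SE 0.29) in naive and 1.303 (SE 0.30) in experienced mice, Shmt2, which splits serine in mitochondria, by 0.46 (SE 0.14) and 0.65 (SE 0.14), and Mthfd1l by 0.54 (SE 0.14) and 0.49 (SE 0.14). Mthfd1, the cytosolic folate enzyme, rose by 0.82 (SE 0.22) in naive mice and was at 0.43 (SE 0.22) in experienced mice. Aldh1l2, another mitochondrial folate enzyme, rose by 2.87 (SE 0.90) in experienced mice on at most 18 reads per library. That call was kept in 6 of 16 fits without 1 library (log2 2.43 to 3.97, adjusted p up to 0.125 by edgeR), the highest without experienced PBS replicate 3 and the lowest without replicate 1.

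Among amino acid transporters, 2 of 9 tested rose in naive and 4 of 9 in experienced mice, where 9.81% and 4.52% of all genes rose. Slc7a5, the large neutral amino acid carrier, rose by 0.73 (SE 0.21) and 1.12 (SE 0.21), and Slc1a4, which carries serine and alanine, by 1.33 (SE 0.36) and 1.44 (SE 0.36). Slc3a2, the partner chain of Slc7a5, rose by 0.63 (SE 0.16) and Slc7a1, a cationic amino acid carrier, by 0.67 (SE 0.17) in experienced mice. Of 6 other amino acid enzymes tested, 2 rose in naive and 4 in experienced mice: Bcat1, which transaminates branched-chain amino acids (1.70, SE 0.51, and 2.41, SE 0.53), and Aldh18a1 of proline synthesis (0.64 and 0.65, SE 0.16 each) in both, Gpt2 (0.90, SE 0.25) and Got1 (0.93, SE 0.29) in experienced mice. Of 16 fits that left out 1 library, Gpt2 was called in 11 (adjusted p up to 0.0843 by edgeR) and Got1 in 6 (adjusted p up to 0.122).

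Upstream of Atf4, Eif2s1, the eIF2 subunit that is phosphorylated, rose by 0.97 (SE 0.23) and the interferon-induced kinase Eif2ak2 (PKR) by 0.70 (SE 0.21) in naive mice, 2 of 6 genes. In experienced mice Eif2b5, of the factor that recharges eIF2, rose by 0.64 (SE 0.18), 1 of 6. Ppp1r15b, a subunit of the eIF2 phosphatase, rose in naive mice by 0.60 (SE 0.13), 1 of 2. Of all genes tested, 9.81% rose in naive and 4.52% in experienced mice. In 16 fits that left out 1 library, these calls were kept in 16 for Eif2s1 and Ppp1r15b, in 11 for Eif2ak2 and in 10 for Eif2b5. Of 6 tested partner factors, Atf5 rose by 0.64 (SE 0.20) and 0.79 (SE 0.20), and Atf3, an early stress factor, by 2.76 (SE 0.68) in experienced mice, where LPS and PBS libraries overlapped. Atf5 was called in 10 of the 16 fits in naive mice and in 15 in experienced mice. Of 7 growth and secreted targets, Stc2, a secreted glycoprotein, rose by 2.47 (SE 0.55) in naive and 3.89 (SE 0.64) in experienced mice, on at most 10 reads in each PBS library, and Cdkn1a, the cell cycle inhibitor p21, rose by 0.99 (SE 0.27) in experienced mice.

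**Figure D5:**
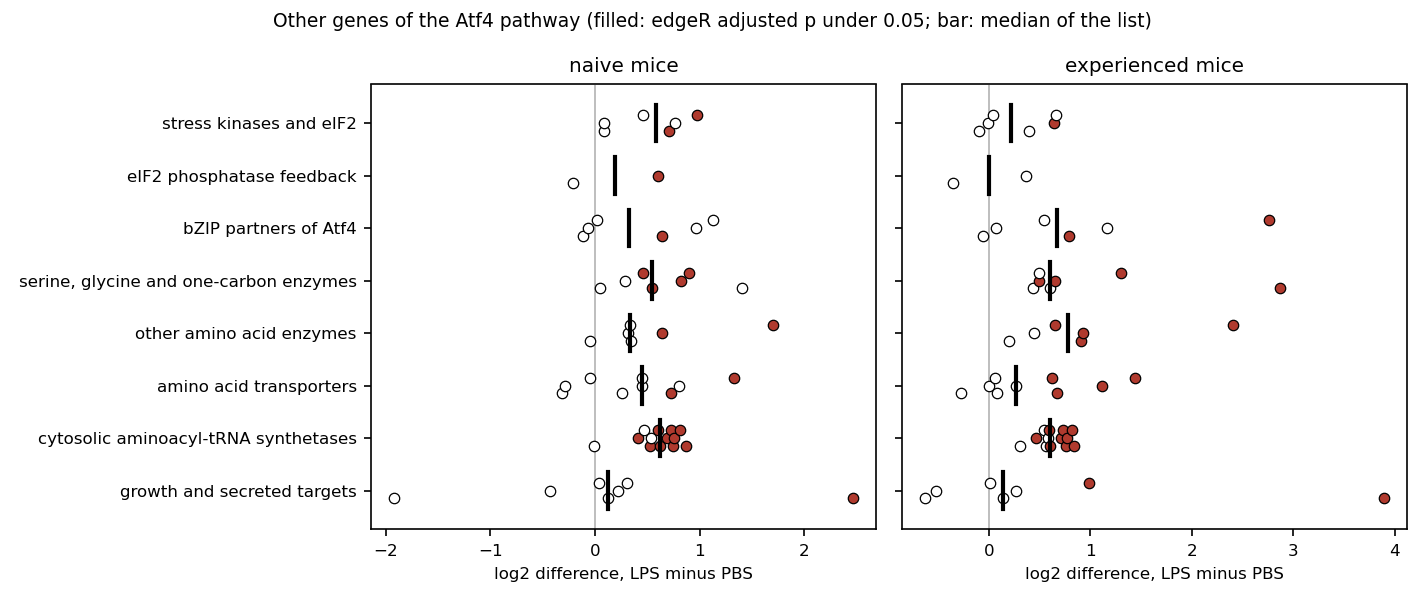
Log2 difference of LPS against PBS (horizontal axes) of the other pathway genes in 8 lists (lines), in naive mice and in experienced mice; each point is a gene, filled points have an edgeR adjusted p under 0.05, and bars are list medians. Every filled point lies right of 0, and the synthetases hold 10 and 9 of the 23 and 26 filled points.

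Of 8 genes of endoplasmic reticulum stress, the chaperones Hspa5 (0.97, SE 0.24, and 0.99, SE 0.24) and Hyou1 (0.92 and 1.09, SE 0.19 each) and the factor Xbp1 (0.64 and 0.69, SE 0.18 each) rose in naive and experienced mice. Ern1, the sensor IRE1 alpha, fell by 0.51 (SE 0.16) and 0.75 (SE 0.16). Of the 8, 3 rose and 1 fell in naive mice, where 9.81% of all genes tested rose and 11.9% fell. In experienced mice 4 rose, not all of them named here, and 1 fell, where 4.52% of all genes rose and 8.26% fell. Log2 values of the 8 there ran from −0.75 to 1.73, the highest belonging to a gene not named here. Of 16 fits that left out 1 library, Xbp1 was called in 14 in naive and 11 in experienced mice, and Ern1 in 11 and 16.

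The genes whose pattern over the 16 libraries was most like that of Trib3 were found by Pearson r of log2(CPM + 1) among 10452 genes. They were Egfl7, a secreted endothelial and stem cell protein (r = 0.96), Dab2ip, a GTPase-activating protein (0.96), Atp2a3, a calcium pump (0.95), and Cd52, a leukocyte surface peptide (0.94). Egfl7 went from 71.4 ± 7.70 CPM in naive PBS and 52.4 ± 19.7 in experienced PBS to 27.8 ± 3.19 and 34.4 ± 9.98 after LPS. Within groups, as deviations from group means, the r of Trib3 with these 4 genes was 0.82 to 0.89. For Atf4 the 4 most alike of 10451 genes were Trib1 (0.88), Strn4 (0.81), Cebpb (0.80) and Rhbdf2 (0.80), with an r within groups of 0.81 to 0.87. Among the 9 genes, the pair with the strongest relation was Asns and Trib3 (r = −0.84), and Atf4 was closest to Chac1 (r = 0.76). Experienced LPS replicate 4 was the lowest of the 16 libraries in Atf4 (137.1 CPM) and Trib1 (18.01 CPM). It was also the lowest of its group in Chac1 (0.1375 CPM), and its part in the r values of Atf4 was not tested. The libraries share depth and composition, so these are descriptions only.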

How the data were processed

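Per the submitters' processing notes, the tools were Trim Galore 0.6.7 for trimming, STAR 2.7.10a for alignment and RSEM 1.3.1 for quantification, with genome build GRCm38. The sources used here give neither the annotation release nor the strand setting. The deposited tables hold RSEM expected counts and TPM (per the file headers), 1 table for each of 16 biological replicates, whose 2 technical replicates share it. RSEM divides reads shared by similar genes, so values of near-identical or overlapping genes are uncertain. The library kit named in the labels is a droplet kit, but the tables hold 1 value per gene and were treated as bulk data. Whether each replicate is its own mouse or a pool is not in the labels, and p-values then measure only how these samples vary, which may be technical. No 2 libraries of the same group agreed within sampling noise.

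Gene symbols came from GENCODE's GRCm38 annotation (45143 of 45706 identifiers). Expected counts were rounded, filtered by edgeR's expression filter (15186 genes), TMM-scaled and fitted over all 16 libraries with 1 mean per group (edgeR 4.0.16, R 4.3.3, 12 residual degrees of freedom). A call was an adjusted p (Benjamini-Hochberg, over all genes tested) under 0.05. Alternatives used DESeq2 1.42.0, limma 3.58.1 on log2(TPM + 1) and others given in the closing section. The scripts were tested on simulated data. Same-numbered replicates were not treated as pairs.

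The 9 genes and all lists were chosen with earlier results of these data known. All 9 are named, the relatives likewise where tested, and of each pathway list up to 4 called genes with the lowest adjusted p per comparison. The endoplasmic reticulum stress genes Hspa5, Hyou1, Xbp1 and Ern1 were picked by name and not by adjusted p. The genes most like Trib3 and Atf4 are the 4 with the highest r, a mean log2 CPM under 2 barring a gene. Aars and Yars were named after their promoters were searched, and marker genes for the check of cell types. Intervals are 95% and cover the spread between libraries. The limit that 0 counts allow is 3 counts and covers counting error only.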

Additional observations from a re-analysis of the deposited data

Results flagged for a closer look

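In 60 sets of 4 libraries (15 genes, the 9 and their relatives, in 4 groups), 8 held a library far from the other 3 by Dixon's ratio at its 95% critical value, where chance gives about 1 in 20. Experienced LPS replicate 4, the shallowest library, was the distant one in 4 of them. It had 0.138 CPM of Chac1 (0.1375, others 1.24 to 1.46), 140.5 CPM of Phgdh (others 377 to 388) and 18.01 CPM of Trib1 (others 53.1 to 57.4), and a high 9.624 CPM of Chac2 (others 3.25 to 4.01). Naive LPS replicate 1 was high in Atf4 with 201.3 CPM (others 172 to 177), and naive LPS replicate 3 was high in Asns with 89.84 CPM (others 49.8 to 54.3). Naive PBS replicate 2 was high in Chac2 with 3.649 CPM (others 2.87 to 2.94). Ddit4l was at 0.1016 CPM, or 2 reads, in experienced LPS replicate 1 and at 0 in the other 3. What sets these libraries apart was not tested.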

How the results depend on the processing

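The cause of the changes below was not tested. In naive mice, limma on log2(TPM + 1) and log2(TPM + 0.1) called 1880 and 1772 genes, of which 374 and 361 were higher, against 3293 and 1490 by edgeR. The share of higher calls was 45.2% by edgeR and 19.9% on log2(TPM + 1), which moved the median of all genes from 0.02 to −0.09. Without replicate 4 of both experienced groups, 2401 were higher. Of the 9 genes, 1 rose with upper-quartile scaling, without the filter, on log2(TPM + 1) and on log2(TPM + 0.1), and 0 fell on the last. In experienced mice, the same TPM scales gave 1132 and 1107 genes (178 and 176 higher; share higher 15.7% on the first, against 35.4%), the 2 groups alone 1149 (677 lower), and the fit without both replicates 4 gave 3376 (1547 higher), against 1940. DESeq2 called 1178 higher. Of the 9, 1 rose on either TPM scale and with the 2 groups alone, and 5 without both replicates 4. Between experienced and naive mice, edgeR called 0 genes, DESeq2 2 after PBS and 2 after LPS, all higher, and 1 higher in the interaction; log2(TPM + 1) gave 1 lower after PBS, and leaving out both replicates 4 gave 1 lower after LPS.

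Leaving out 1 library gave 2090 (without naive PBS replicate 2) to 4402 (without experienced LPS replicate 4) genes in naive mice, 770 to 2178 higher, with 1 to 2 of the 9 rising. In experienced mice it gave 1075 (without experienced PBS replicate 1) to 3211 (without experienced LPS replicate 4), 308 to 1464 higher and 713 to 1747 lower, with 1 to 3 of the 9 rising. Over the 9 genes and 5 comparisons, 706 of 720 such values and 427 of 441 under other settings kept their side of the threshold, and 0 called values changed sign. Over all groups, same-numbered replicates did not deviate together (6 of 24 pairs over 0.1, 5 of 16 libraries closest to their own number). Between experienced PBS and experienced LPS the r of deviations was 0.23, 0.31, −0.13 and 0.42 for replicates 1 to 4. Different-numbered pairs of these groups ran from −0.41 to 0.35. A fit with the replicate number as a block called 2920 and 1592 genes after LPS, with the same counts for the 9 (2 rose and 1 fell, 2 rose and 0 fell). The scale log2(TPM + 0.1) and the fit without experienced PBS replicates 3 and 4 were chosen after seeing the data. Depth limits Chac1 and Trib3, with 0 to 31 and 0 to 101 reads per library.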
